A study of Homo sapiens with 17 samples.

Results

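The HOXD cluster holds 9 homeobox genes, HOXD1, HOXD3, HOXD4, HOXD8, HOXD9, HOXD10, HOXD11, HOXD12 and HOXD13, of 20037 annotated protein-coding genes. For each gene, intervals of 8 Flag ChIP-seq peak lists within 1 kb of either annotated gene end were taken, together with every interval from HOXD13 to HOXD1. That stretch, with 1 kb added at each end, was chr2:176086487-176191907 (hg38), 105.421 kb long. It held 101 of the 425835 intervals of the 8 lists. The genes were chosen by the presence, width and fold enrichment percentile of these intervals by culture state and isoform, so those values are described below without a test.

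The lists came from Caco-2/15 cells, which derive from a human colon carcinoma and become enterocyte-like once they have grown to confluence. One allele of either H2AFZ (H2AZ1, encoding H2A.Z.1) or H2AFV (H2AZ2, encoding H2A.Z.2) carried a CRISPR-Cas9-made Flag tag in its 3′ region, so each precipitation followed the product of 1 tagged allele beside an untagged one. The 4 groups were tagged H2A.Z.1 in subconfluent cells, tagged H2A.Z.1 in cells 7 days postconfluent, tagged H2A.Z.2 in subconfluent cells and tagged H2A.Z.2 in cells 7 days postconfluent. Each group had 2 experiments, Exp1 and Exp2, and 1 list per experiment. The study set the isoforms against each other and the states against each other to follow both proteins through enterocyte-type differentiation.

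H2A.Z is a variant of histone H2A that is placed into nucleosomes by the SRCAP and p400 remodelling complexes, often beside the starts of active genes and of genes held by Polycomb. HOX genes encode homeodomain transcription factors that set position along the body axis and along the gut, and within a cluster they lie in the order in which they are used. In the HOXD cluster, HOXD13 to HOXD9 form the posterior side, active toward the hindgut, limb and genital tubercle, and HOXD4, HOXD3 and HOXD1 form the anterior side.

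The lists held 30603 to 66522 intervals in subconfluent cells and 39086 to 79425 in postconfluent cells. Each was therefore also set to its 30603 intervals of highest −log10 p, and these are called equal-length lists. The shortest list, H2A.Z.2 subconfluent Exp2, was used whole, and its weakest interval reached 5.19 on that scale, where the weakest of each remaining list reached 9.99 to 16.8. Median interval width in the equal-length lists was 474 to 780 bp in subconfluent and 666 to 873 bp in postconfluent cells. Read depth is unknown from peak lists, and an unlisted stretch may hold signal under the authors' threshold. In whole lists, 6 of 15 enterocyte and colon markers had an interval at a gene end in all 8, among them CDX2, HNF4A and CDH1, against 0 of 6 blood markers. Of 8 fibroblast and endothelium markers, 1 (COL1A1) did, and KRT20 and SI, markers of mature enterocytes, had no interval in any list. Interval names opened with 1 of 3 labels, and what these labels stand for is not given. There was 1 for both H2A.Z.1 Exp1 lists, 1 for both H2A.Z.2 Exp1 lists and 1 for all 4 Exp2 lists. Each label thus held both states, but in Exp1 isoform and label cannot be told apart. The states of 1 isoform and experiment are called a same-label pair.

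The intervals merged into 19 sites along the cluster. A core of 7 sites was listed in all 8 whole lists and held 79 of the 101 intervals, 3 sites were in 2 to 6 lists, and 9 sites were in 1 list only. Of those 9, H2A.Z.1 subconfluent Exp2, the longest subconfluent list, gave 8, and their fold enrichments, the authors' own value per interval, were low, 3.08 to 4.90 over all 9. With Exp1 named before Exp2 here and below, the subconfluent whole lists held 11 and 22 HOXD intervals (H2A.Z.1) and 15 and 10 (H2A.Z.2). The postconfluent ones held 10 and 13 (H2A.Z.1) and 9 and 11 (H2A.Z.2). In the equal-length lists the numbers were 10, 10, 8 and 10 in subconfluent cells and 8 in each postconfluent list, and 8 sites remained, 6 of them in all 8 lists.

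**Figure D1:**
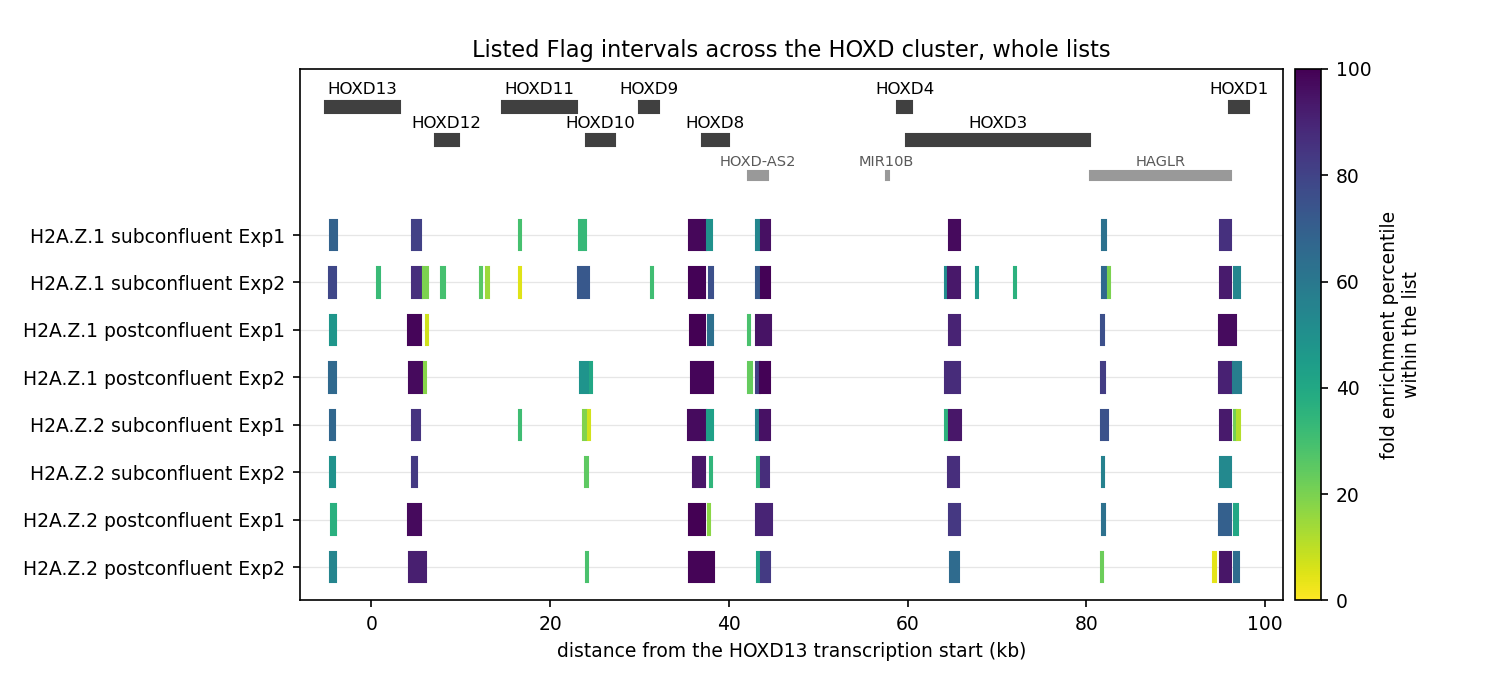
Intervals of the 8 whole lists (rows) along the HOXD cluster, with position on the x axis in kb from the HOXD13 transcription start and colour giving the percentile of fold enrichment within the list; dark boxes are the 9 HOXD genes and grey boxes 3 noncoding genes. The same 7 columns of intervals run through every list, the scattered pale intervals lie mostly in H2A.Z.1 subconfluent Exp2, and the stretch over MIR10B and HOXD4 is empty.

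The longest stretch with no interval in any whole list was chr2:176137511-176156914, 19.404 kb. It holds the microRNA gene MIR10B, all of HOXD4 and the first annotated bases of HOXD3. The next longest, 11.55 kb, lay within HAGLR, a long noncoding RNA gene that begins beside HOXD1 and is read toward HOXD3.

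Of the 9 HOXD genes, 3 had an interval at an annotated end in all 8 equal-length lists: HOXD13, HOXD8 and HOXD1. Over all protein-coding genes the share was 54.5% (57.9% in whole lists, where the HOXD count was also 3). No interval in any whole list stood at either end of HOXD4 and HOXD3, 2 of 9, against 26.1% of all protein-coding genes. HOXD3 entered that count through its annotation. Its first annotated base lies 4778 bp before the start in RefSeq's promoter table, and that start had an interval within 1 kb in all 8 lists. HOXD13 counted as occupied in all 8 through its first annotated base. That base lies 5234 bp before its promoter-table start, which had an interval within 1 kb in 1 whole list. At promoter-table starts, 3 of the 8 HOXD genes with an entry (HOXD8, HOXD3 and HOXD1) were occupied in all 8 whole lists, against 59.0% of 15843 genes; HOXD9 has no entry.

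The 3 starts with an interval within 1 kb in every list are printed below beside 2 that had none there in any list, HOXD11 and HOXD4. Each is the 250 bases before to 50 after the start, on the + strand, from RefSeq on GRCh38.p14, with CpG dinucleotides in capitals.
HOXD8: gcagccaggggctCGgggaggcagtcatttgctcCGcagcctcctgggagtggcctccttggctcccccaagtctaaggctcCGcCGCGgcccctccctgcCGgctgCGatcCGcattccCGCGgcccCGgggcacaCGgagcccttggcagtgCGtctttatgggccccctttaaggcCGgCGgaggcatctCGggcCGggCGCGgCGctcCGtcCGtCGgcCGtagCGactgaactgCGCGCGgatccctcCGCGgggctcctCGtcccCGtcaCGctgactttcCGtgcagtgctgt
HOXD3: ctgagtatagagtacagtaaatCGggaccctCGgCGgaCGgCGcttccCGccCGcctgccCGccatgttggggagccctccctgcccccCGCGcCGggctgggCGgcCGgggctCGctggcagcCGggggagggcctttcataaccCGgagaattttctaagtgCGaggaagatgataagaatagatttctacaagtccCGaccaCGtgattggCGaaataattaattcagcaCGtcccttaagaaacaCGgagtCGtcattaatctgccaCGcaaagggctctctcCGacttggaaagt
HOXD1: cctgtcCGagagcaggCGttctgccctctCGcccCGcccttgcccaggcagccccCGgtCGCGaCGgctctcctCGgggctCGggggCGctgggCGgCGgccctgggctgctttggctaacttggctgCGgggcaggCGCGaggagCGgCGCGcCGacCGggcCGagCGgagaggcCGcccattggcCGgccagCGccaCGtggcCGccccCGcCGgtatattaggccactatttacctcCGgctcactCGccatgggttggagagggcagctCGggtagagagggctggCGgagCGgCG
HOXD11: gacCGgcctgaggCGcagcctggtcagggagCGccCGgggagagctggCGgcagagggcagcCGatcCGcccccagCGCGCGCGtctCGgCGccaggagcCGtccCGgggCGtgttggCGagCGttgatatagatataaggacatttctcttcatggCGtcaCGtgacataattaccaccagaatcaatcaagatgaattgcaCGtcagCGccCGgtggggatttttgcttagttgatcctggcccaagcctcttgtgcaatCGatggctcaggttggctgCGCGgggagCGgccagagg
HOXD4: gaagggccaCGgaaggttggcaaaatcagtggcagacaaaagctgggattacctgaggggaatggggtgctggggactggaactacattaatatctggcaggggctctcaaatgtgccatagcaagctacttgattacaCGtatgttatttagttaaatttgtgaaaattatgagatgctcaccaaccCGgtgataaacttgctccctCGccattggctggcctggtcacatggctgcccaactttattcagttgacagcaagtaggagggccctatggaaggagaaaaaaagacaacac

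These windows are chr2:176129455-176129754 for HOXD8, chr2:176157057-176157356 for HOXD3, chr2:176188418-176188717 for HOXD1, chr2:176107030-176107329 for HOXD11 and chr2:176151300-176151599 for HOXD4. HOXD1 held 36 CpGs and HOXD8 held 34, at percentiles 88.7 and 85.9 of 35116 promoters of the same length, whose median was 14. HOXD4 held 4, at percentile 29.6, the fewest of the 8 HOXD promoters. CpG number did not order the promoters by whether an interval lay within 1 kb. HOXD11, with none there in any list, held 27, and HOXD3, with one in every list, held 25. In H2A.Z.1 postconfluent Exp1 and both H2A.Z.2 postconfluent lists, the HOXD3 interval began past the printed window, at chr2:176157381, 176157415 and 176157506. HOXD13, HOXD10 and HOXD12 held 24, 23 and 19. The letters TTTATNG, a core of the motif read by CDX proteins, were searched on both strands and found in 1 of 8 HOXD promoters, that of HOXD8, and in 9.73% of all promoters.

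At the posterior end, HOXD13, the last gene of the cluster, differed by state at an annotated end. Its last annotated base, chr2:176095944, had an interval within 1 kb in all 4 postconfluent lists and in none of the 4 subconfluent lists, in equal-length and in whole lists. Over all annotated ends of protein-coding genes, 0.107% (43 of 40074) showed this pattern in equal-length lists and 0.0499% (20) the reverse. Since the members were chosen with this contrast, nothing is read from that share. HOXD13 was the 1 member with such an end, in either direction.

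The interval behind that call was present in all 8 lists. It belonged to a site between HOXD13 and HOXD12, chr2:176096772-176099046, which overlaps no annotated gene. The left edge of its strongest interval lay 1296 and 1278 bp past HOXD13's last base for H2A.Z.1 in subconfluent cells, and 1272 and 1329 bp past it for H2A.Z.2. In postconfluent cells it lay at 828 and 975 bp for H2A.Z.1 and at 847 and 940 bp for H2A.Z.2. The postconfluent intervals therefore reached inside the 1 kb limit and the subconfluent ones stopped short of it, the nearest values on each side being 975 and 1272 bp. Mean distance was 897.5 ± 71.2 bp (SD, n = 4 lists) against 1293.75 ± 25.6 bp (SD, n = 4), a difference of −396.25 bp. Summits stayed together, 1628 to 1695 bp past HOXD13 in postconfluent and 1583 to 1715 bp in subconfluent cells, so the states overlapped in where the interval peaked. Right edges also overlapped, at 2304 to 2887 bp and 1910 to 2386 bp.

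**Figure D2:**
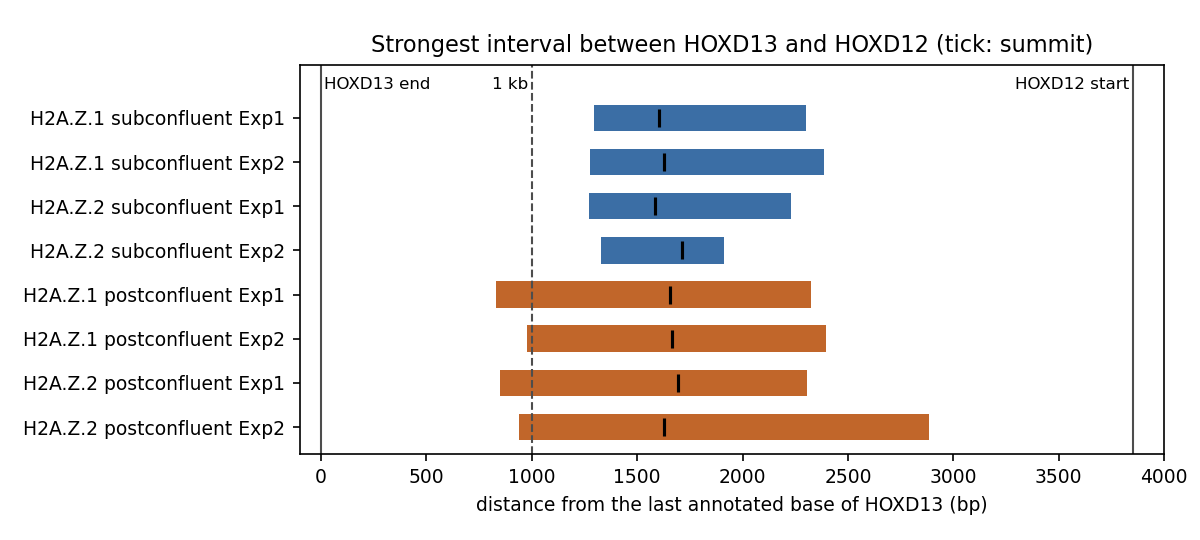
Strongest interval between HOXD13 and HOXD12 in each of 8 lists, drawn as distance in bp from the last annotated base of HOXD13 (blue, subconfluent; orange, postconfluent; tick, summit; dashed line, 1 kb). The 4 postconfluent intervals begin at 828 to 975 bp and cross the dashed line, and the 4 subconfluent intervals begin at 1272 to 1329 bp and do not.

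Other ends with this pattern also had subconfluent intervals farther out. Of the 43 ends, 33 had an interval within 2 kb in at least 1 subconfluent whole list and 10 had one in all 4, while another 10 had none. Of the 20 ends with the reverse pattern, 3 had an interval within 2 kb in all 4 postconfluent whole lists. A count of regions that does not depend on gene ends gave 0 HOXD regions present in 4 lists of one state and absent from the other, out of 8. Over the 47120 regions of the equal-length lists, 0.49% were postconfluent-only and 0.233% subconfluent-only by this count.

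At the site between HOXD13 and HOXD12, the strongest interval was wider and ranked higher in postconfluent cells. Its width was 1004 and 1109 bp for H2A.Z.1 and 961 and 582 bp for H2A.Z.2 in subconfluent cells. In postconfluent cells it was 1500 and 1420 bp for H2A.Z.1 and 1458 and 1948 bp for H2A.Z.2. The states did not overlap, and the means, 1581.5 ± 246.5 bp and 914 ± 229.9 bp (SD, n = 4 lists each), stood in a ratio of 1.73. Ranked within its whole list, this width stood at percentiles 60.6 to 90.1 in subconfluent and 91.3 to 97.7 in postconfluent cells. The nearest values, 90.1 and 91.3, were thus close. The strongest interval's width separated the states in this direction in 4.06% of the 20590 regions present in all 8 whole lists, and in the other direction in 0.413%. Summed over all intervals at the site, covered bases overlapped by state (1458 to 1948 bp against 582 to 1657 bp), as H2A.Z.1 subconfluent Exp2 listed a second interval there. Covered bases separated the states in 4.59% of these regions with postconfluent above and in 0.413% with subconfluent above. The median ratio of covered bases between states over the 20590 regions was 1.07, with the 5th and 95th percentiles at 0.835 and 1.53.

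In fold enrichment percentile within the equal-length list, this site stood at 70.6 and 70.8 (H2A.Z.1) and 72.6 and 83.0 (H2A.Z.2) in subconfluent cells. In postconfluent cells it stood at 97.6 and 93.9 (H2A.Z.1) and 96.8 and 86.1 (H2A.Z.2). All 4 postconfluent values were above all 4 subconfluent ones. The smallest gap was between the H2A.Z.2 Exp2 lists, 3.13 points, with gaps of 23.1 to 27.0 in the other 3 same-label pairs. Whole lists gave the same separation, 91.7 to 98.7 against 80.7 to 86.6. Percentiles separated the states in this direction in 2.91% of the 16878 regions present in all 8 equal-length lists and in the other direction in 2.89% (2.66% and 0.699% in whole lists). Width and percentile both did so in 0.452% of regions in whole lists.

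A second site, chr2:176087959-176088840, lay within HOXD13 in all 8 lists, with the opposite order by state. Its intervals began 472 to 668 bp past HOXD13's first annotated base. Its percentile in equal-length lists was 52.5 and 53.4 (H2A.Z.1) and 40.0 and 49.1 (H2A.Z.2) in subconfluent cells, and 10.3 and 15.2 (H2A.Z.1) and 19.8 and 24.1 (H2A.Z.2) in postconfluent cells. Every subconfluent value was above every postconfluent value, with means of 48.8 ± 6.11 and 17.3 ± 5.97 (SD, n = 4 lists each). Of the 16878 regions present in all 8 equal-length lists, 2.89% separated in this direction. In whole lists the ranges overlapped, 49.1 to 78.6 in subconfluent and 36.6 to 66.2 in postconfluent cells, so that separation depended on list length. Its widths also overlapped, 573 to 753 bp against 545 to 746 bp. The 2 sites near the ends of HOXD13 thus ranked in opposite order by state within the same lists. HOXD13's start in the promoter table, 5234 bp past its first annotated base, had an interval only in H2A.Z.1 subconfluent Exp2, with a fold enrichment of 4.36 at percentile 32.4 of that whole list.

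HOXD12 had an interval within 1 kb of its start in 3 postconfluent and 1 subconfluent whole lists, and in 1 equal-length list. The postconfluent intervals belonged to the site between HOXD13 and HOXD12, whose strongest summits lay 2136 to 2268 bp before HOXD12. They were the 1948 bp interval of H2A.Z.2 Exp2 and, for H2A.Z.1, side intervals of 279 and 274 bp with fold enrichments of 3.11 and 3.87. The subconfluent list, H2A.Z.1 Exp2, also had a side interval of that site within 1 kb, of 548 bp at a fold enrichment of 3.97. It had another interval of 378 bp within HOXD12, chr2:176100523-176100900, at a fold enrichment of 4.31. The other end of HOXD12 had no interval in any list.

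HOXD11 and HOXD10, posterior genes that lie head to tail, shared a site at chr2:176115873-176117435, over the start of HOXD10 and just past the end of HOXD11. It was in all 4 subconfluent and 2 postconfluent whole lists, and in 3 equal-length lists, all subconfluent. Its percentile in those 3 was 6.79 and 41.0 for H2A.Z.1 and 24.6 for H2A.Z.2 Exp2, below the middle of each list. In whole lists it stood at 19.1 to 72.8 in subconfluent cells and at 48.2 and 28.6 in the 2 postconfluent Exp2 lists. Without H2A.Z.2 subconfluent Exp1, the 1 subconfluent list that lost it on shortening, it counted as a subconfluent-only region (1 region in place of 0). A weaker site within HOXD11, chr2:176109189-176109511, was in 3 subconfluent whole lists, with fold enrichments of 4.49, 3.31 and 4.05, and in no equal-length list. HOXD11's own start and HOXD9's first annotated base had no interval in any list, and HOXD9's last base had 1, from H2A.Z.1 subconfluent Exp2, at a fold enrichment of 4.34.

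HOXD8, in the middle of the cluster, carried the site with the highest mean percentile of the 6 in all equal-length lists (97.3), chr2:176128198-176131023, which also covers the start of the noncoding gene LOC100129455. In equal-length lists its percentile was 97.0 and 98.5 (H2A.Z.1) and 94.7 and 94.2 (H2A.Z.2) in subconfluent cells, and 99.4 and 96.2 (H2A.Z.1) and 99.8 and 98.6 (H2A.Z.2) in postconfluent cells. The states overlapped, and so did the isoforms. Listed intervals covered 1657 to 2549 bp of it in subconfluent and 2070 to 2818 bp in postconfluent cells. All 8 summits lay before the HOXD8 start printed earlier, by 183 to 297 bp. Normal scores of rank, in units of 1 SD, were taken among the 10887 genes ranked in every equal-length list. On these, HOXD8 differed by 0.588 (SE 0.362) between postconfluent and subconfluent and by −0.0703 (SE 0.362) between H2A.Z.2 and H2A.Z.1.

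A site past HOXD8, chr2:176135740-176137510, covers the starts of 2 noncoding genes, HOXD-AS2 and LOC401021, and no HOXD gene. Its percentile in equal-length lists was 94.0 and 98.7 (H2A.Z.1) and 91.6 and 87.3 (H2A.Z.2) in subconfluent cells, and 90.9 and 98.4 (H2A.Z.1) and 87.4 and 71.3 (H2A.Z.2) in postconfluent cells. By isoform the values met at the edge, 90.9 to 98.7 for H2A.Z.1 and 71.3 to 91.6 for H2A.Z.2, and by state they overlapped. The authors' fold enrichment there was 12.3 to 19.9 in H2A.Z.1 and 8.77 to 11.8 in H2A.Z.2 lists, ranges that did not overlap, but its level is not comparable between lists. No HOXD site separated the isoforms by percentile, by width or by covered bases. Over the genome, percentiles in equal-length lists separated them in 0.966% (H2A.Z.2 above) and 1.3% (H2A.Z.1 above) of regions, and in whole lists in 0.0729% and 5.5%. For the width of the strongest interval these shares were 0.126% and 3.54%, and for covered bases 0.107% and 3.28%. Nor was any of the 8 HOXD regions of the equal-length lists in all 4 lists of one isoform and none of the other, against 0.0149% (H2A.Z.2 only) and 0.0976% (H2A.Z.1 only) of all regions.

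On the anterior side, HOXD4 had no listed interval at all. HOXD3 carried the site chr2:176156915-176158663 at its promoter-table start. Its percentile in equal-length lists was 96.1 and 86.0 (H2A.Z.1) and 88.9 and 86.7 (H2A.Z.2) in subconfluent cells, and 82.5 and 68.1 (H2A.Z.1) and 79.2 and 41.9 (H2A.Z.2) in postconfluent cells. All subconfluent values were above all postconfluent ones, as in 2.89% of the 16878 regions present in all 8 equal-length lists. Postconfluent minus subconfluent differences were −9.78 to −44.9 points within same-label pairs. Whole lists overlapped, 86.7 to 97.4 against 65.4 to 90.5, and so did covered bases, 1190 to 1579 bp against 1012 to 1595 bp. All 8 summits lay past the HOXD3 start, by 297 to 489 bp, on the other side from those at HOXD8.

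HOXD1, the most anterior gene, shares its start region with HAGLR, which is read in the other direction. The site there, chr2:176187533-176190027, stood at percentile 78.8 and 84.5 (H2A.Z.1) and 87.5 and 53.0 (H2A.Z.2) in subconfluent cells. In postconfluent cells it stood at 94.5 and 75.7 (H2A.Z.1) and 61.2 and 90.4 (H2A.Z.2). States and isoforms overlapped, and same-label pairs differed in sign, from −26.2 to 37.4 points. Summits lay between 443 bp before and 130 bp past the HOXD1 start, 7 of 8 before it. The normal score of HOXD1 differed by 0.263 (SE 0.430) by state and −0.449 (SE 0.430) by isoform. A last common site, chr2:176174380-176175172 within HAGLR, was narrow, 218 to 793 bp, and was in all 8 whole lists and in 7 equal-length lists, at percentiles of 26.2 to 56.5.

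**Figure D3:**
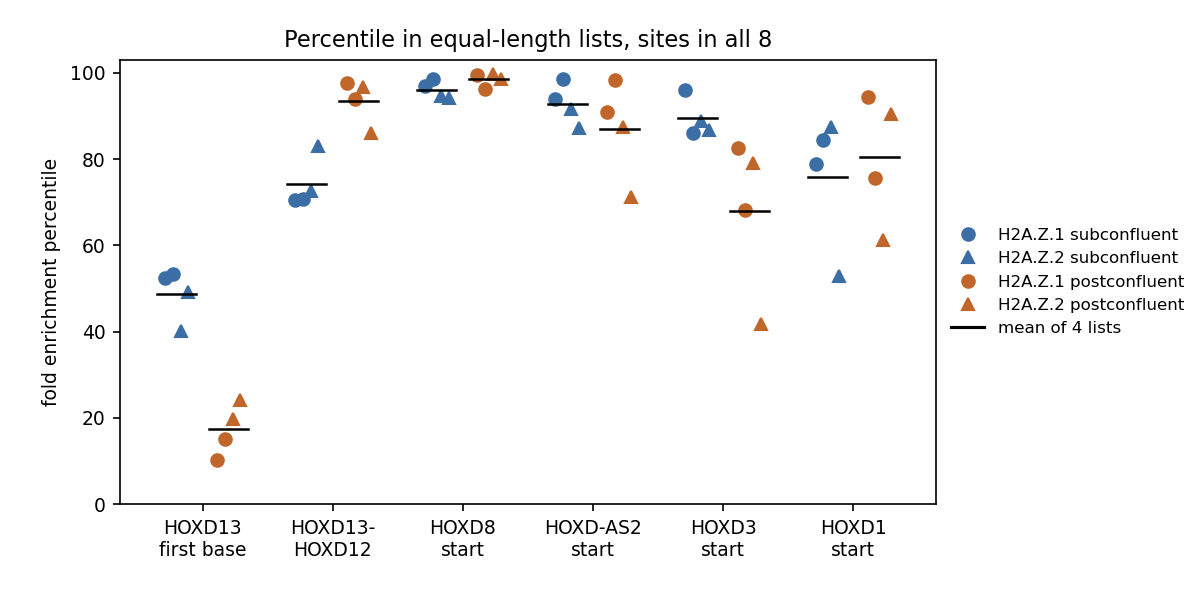
Percentile of fold enrichment within the equal-length list (y axis) for the 6 HOXD sites present in all 8, by state (blue, subconfluent; orange, postconfluent) and isoform (circle, H2A.Z.1; triangle, H2A.Z.2), with bars at the mean of 4 lists. The states separate near HOXD13's first base (40.0 to 53.4 above 10.3 to 24.1) and between HOXD13 and HOXD12 (70.6 to 83.0 below 86.1 to 97.6). They also separate at HOXD3 (86.0 to 96.1 above 41.9 to 82.5), and overlap at the other 3.

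Across these 6 sites, the percentile thus put postconfluent above subconfluent at 1, subconfluent above postconfluent at 2, and neither at 3. Over the 16878 regions in all 8 equal-length lists, the first 2 shares were 2.91% and 2.89%. In whole lists, of 7 sites, 1 separated the states, with postconfluent above, and 6 did not. Over 20590 regions, whole lists gave 2.66% with postconfluent above and 0.699% with subconfluent above. Since the members were chosen with this contrast, nothing is read from these counts. Over the whole cluster the equal-length lists covered 9363.75 ± 336.0 bp in postconfluent and 8565 ± 1121 bp in subconfluent cells (SD, n = 4 lists each), a difference of 798.75 bp within the spread of the subconfluent lists. In whole lists the difference was 217 bp. H2A.Z.2 lists covered 8422.25 ± 995.3 bp and H2A.Z.1 lists 9506.5 ± 144.8 bp, a difference of −1084.25 bp, and their ranges, 7059 to 9368 bp and 9297 to 9624 bp, met at the edge. The low end was H2A.Z.2 subconfluent Exp2, the list whose median interval width, 474 bp, was also the lowest of the 8 at equal length. Without that list the difference by state was 296.75 bp and that by isoform −629.833 bp. These are bulk cultures, so fewer cells carrying tagged H2A.Z at a site and less of it per cell cannot be told apart.

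**Figure D4:**
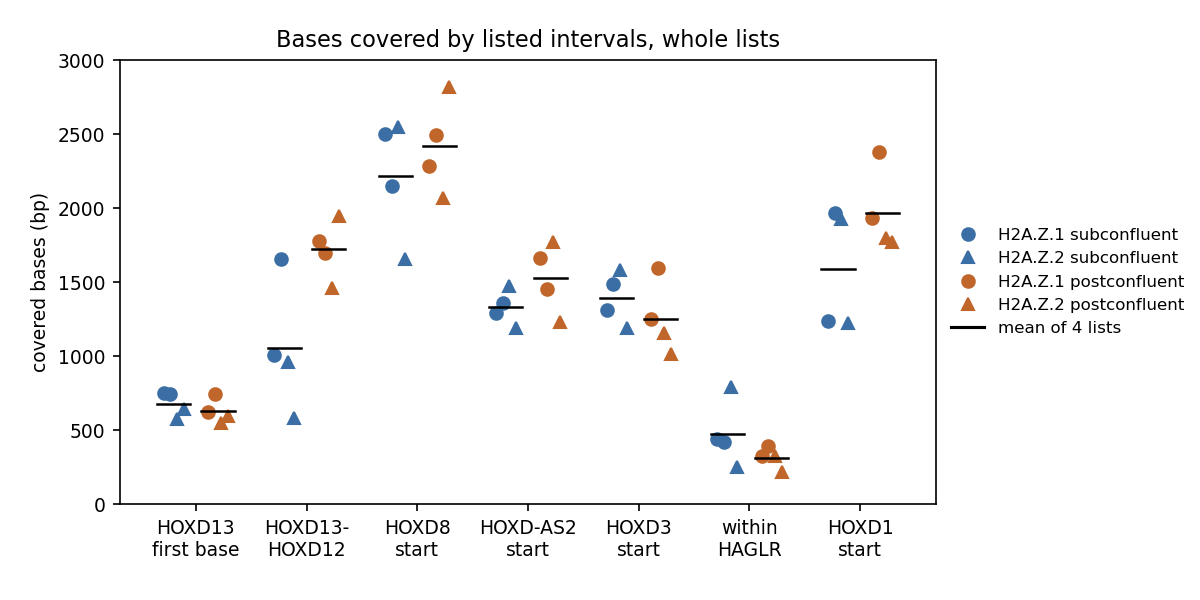
Bases covered by listed intervals (y axis, bp) at the 7 HOXD sites present in all 8 whole lists, coloured by state and shaped by isoform, with bars at the mean of 4 lists. The HOXD8 site is the widest, 1657 to 2818 bp, the site within HAGLR the narrowest, 218 to 793 bp, and the states overlap at all 7.

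The flanks of the cluster, which the choice of genes did not use, were tested. In the 200 kb on each side, equal-length lists covered 3606 ± 659.6 bp in postconfluent and 3387 ± 492.9 bp in subconfluent cells (SD, n = 4 lists each), a difference of 219 bp with p = 0.657 by a 2-sided exact permutation test. By isoform, H2A.Z.2 minus H2A.Z.1 was −263.5 bp with p = 0.514 by the same exact test. The smallest p that 4 lists against 4 allow is 0.0286, and neither difference exceeded the spread between lists. The flanks held 2 gene starts with an interval in all 8 lists: that of LNPK, encoding the endoplasmic reticulum protein lunapark (chr2:176001125-176003155), and that of MTX2, encoding the mitochondrial import protein metaxin 2 (chr2:176268848-176270454). EVX2, the homeobox gene next to HOXD13, had no interval at either end, and sites within it were in 7 and 4 whole lists.

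The other HOX clusters were more often listed, which is given as a description. Counted the same way in whole lists, 10 of 11 HOXA genes, 8 of 10 HOXB genes and 8 of 9 HOXC genes had an interval at an annotated end in all 8, against 3 of 9 in HOXD. Median cover over the 8 lists was 23.7% of the HOXA stretch (range 18.7% to 29.3%), 13.8% of HOXB (10.2% to 16.4%), 15.6% of HOXC (11.9% to 16.9%) and 9.58% of HOXD (6.70% to 12.8%). The HOXA and HOXD ranges did not overlap, and those of HOXB and HOXC overlapped that of HOXD. The clusters differ in length and gene number, and the same 8 lists stand behind each.

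Among all protein-coding genes, the 5 whose percentiles over the 8 lists were most like those at HOXD13's last base were PTGDR2, SH2D4B, LOC124904950, NKAIN4 and LY6S, with root-mean-square differences of 6.23, 13.5, 16.6, 16.6 and 21.2 points. NKAIN4 and LOC124904950 lie on the same intervals. At PTGDR2, which encodes a prostaglandin D2 receptor, the percentiles were 87.4, 87.8, 96.2 and 73.1 in postconfluent lists, with no interval within 1 kb in the subconfluent ones at equal length. Each of the 5 had an interval within 2 kb in all 4 subconfluent whole lists, as HOXD13 did.

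Of 48 genes that encode HOX cofactors or regulators of HOX clusters (PBX, MEIS and CDX proteins, Polycomb and trithorax subunits, CTCF and cohesin), 42 had an interval at a gene end in all 8 whole lists, where 57.9% of all protein-coding genes did. EVX1, EVX2 and MEIS3, 3 of the 48, had none in any list, as did 26.1% of all genes. In the 10887 genes ranked in every equal-length list, limma called 0.0459% by state at an adjusted p of 0.05 (5 genes, of which 4, or 0.0367%, were higher and 1, or 0.00919%, lower in postconfluent cells) and 0.0% by isoform (0 genes, 406 at an unadjusted p under 0.05). None of the 40 ranked list genes was among those called in either contrast. An unadjusted limma p under 0.05 was reached by 995 of the 10887 genes by state, including 6 of the 40. By isoform it was reached by 0 of the 40. By state, 24 of the 40 were above 0, with a median score difference of 0.133, against 5426 of 10887 genes and a median of −0.00258. By isoform, 17 of 40 were above 0, with a median of −0.0328, against 5445 of 10887 genes and a median of 9e-05. The 2 highest by state were PKNOX1, a TALE-homeodomain partner of HOX proteins, at 1.31 (SE 0.381, limma adjusted p = 0.305), and EZH1, a Polycomb methyltransferase, at 1.14 (SE 0.425, limma adjusted p = 0.389). The 2 lowest were MEIS1, another TALE partner, at −1.15 (SE 0.452, limma adjusted p = 0.428), and CDX2, the intestinal homeobox regulator, at −0.678 (SE 0.376, limma adjusted p = 0.608).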

How the data were processed

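Flag ChIP-seq peak lists of 8 samples were used, 1 list per sample; the other 9 of 17 labelled samples are not analysed here. The submitters' processing notes name hg38, BWA and deepTools. For the peak caller, its control and any use of the spike-in: not given in the sources used here. In the deposited lists, the score is 10 times the −log10 q-value, and fold enrichment, as the authors deposited it, is a ratio to a reference that is not given. The deposited p and q columns are on a −log10 scale, with −log10 q of at least 3.00. Fold enrichments were compared between lists as ranks within a list, and raw ones are printed as the authors' values. Widths, edges and covered bases were compared in bp.

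Only intervals on the autosomes, X and Y were used. Lists were set to equal length by −log10 p, and whole lists are given beside. An interval counted at a gene end if it overlapped the 1 kb on either side by at least 1 bp. Gene ends came from RefSeq (GRCh38.p14, the build hg38), starts and strands from its promoter table. A site or region is the merged union of intervals over lists, and its value is that of its interval of highest −log10 p. Ranks of genes occupied in all 8 lists became normal scores. limma 3.58.1 in R 4.3.3 fitted 4 group means to them, with Benjamini-Hochberg adjustment at 0.05.

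The HOXD genes and gene lists were chosen with earlier results of these data known. Genes named outside the cluster were the neighbours EVX2, LNPK and MTX2, the 5 closest in pattern to HOXD13, and the 2 highest and 2 lowest of the cofactor list where none passed the test. The labels do not say that experiments were separate cultures, so p-values measure only the spread between samples, which may be technical.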

Additional observations from a re-analysis of the deposited data

How the results depend on the processing

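The number of HOXD genes occupied in all 8 lists stayed between 2 and 4 over 17 alternatives, the promoter-table start among them, which was chosen after seeing the data. The number of HOXD regions confined to 1 state was 0 in 13 of 14 alternatives and 0 to 1 over lists left out in turn, the 1 arising without H2A.Z.2 subconfluent Exp1. HOXD covered length by isoform moved from −1084.25 bp to −2120 bp in whole lists and to −2175.75 bp at a −log10 q of at least 5; the cause was not tested. Without H2A.Z.2 subconfluent Exp2 it was −629.833 bp. By state it stayed positive in all 14, but fell from 798.75 bp to 389.75 bp with lists of equal covered length, 217 bp in whole lists, 272.75 bp at that −log10 q and 296.75 bp without H2A.Z.2 subconfluent Exp2. Without both H2A.Z.2 Exp2 lists, an alternative chosen after seeing the data, it was 295.333 bp.

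The flank difference by state changed sign in whole lists (−36 bp, exact permutation p = 0.971), with 100 kb flanks (−159.5 bp) and with 400 kb flanks (−2.0 bp), and ran from −27.6667 to 454 bp over lists left out in turn, the lowest without H2A.Z.1 postconfluent Exp2. By isoform it became 141.75 bp both with half-length lists and with lists of equal covered length. No flank alternative passed the test, and the cause was not tested.

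Genes ranked differently by state by limma, 5 of 10887, were 0 with lists of equal covered length (670 at an unadjusted p under 0.05), 0 with half-length lists (619), 41 when −log10 p was ranked, and 0 to 5 over lists left out in turn. The count was 0 on leaving out either Exp2 list of tagged H2A.Z.1, the subconfluent Exp2 list of tagged H2A.Z.2 or its postconfluent Exp1 list. It was 2 when the list left out was subconfluent H2A.Z.2 Exp1, and 3 when it was postconfluent H2A.Z.1 Exp1. By isoform every alternative gave 0. The states of each isoform and experiment share a label in their interval names. Differences between Exp1 and Exp2 correlated at 0.207 and 0.158 between states of the same isoform and at −0.0553 to 0.0496 between isoforms, so the numbers were not taken to pair all groups. With a replicate block, limma called 9 genes by state and 0 by isoform (474 at an unadjusted p under 0.05), and the flank differences, 219 and −263.5 bp, had exact permutation p = 0.25 and 0.625. Peak lists hold no depth, so an absent interval at a HOXD gene is not a measured absence of H2A.Z.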
